A study of Mus musculus with 8 samples.

Results

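Interleukin-1 family cytokines and their receptors were followed in whole skin from E18.5 mouse embryos, close to birth, that were either wild type or null for p63, a transcription factor of stratified epithelia. The members were chosen by symbol: every probe set (a group of short probes read as 1 signal) whose platform annotation gives 1 symbol, that symbol being Il1a, Il1b, Il1rn, Il1f5, Il1f6, Il18, Il1r1, Il1r2, Il1rap or Il1rl1. This gave 10 probe sets for 9 of the 10 genes, out of 24965 probe sets on both array types (13674 genes by single symbol), with 9 on the A chip and 1 (Il1f6) on the B chip. Il1rl1, the receptor for interleukin-33, had no such probe set and is not analysed here.

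Matings of p63 heterozygotes gave the embryos, and each genotype has 2 arrays on each chip, 8 arrays in all. The sources used here give no allele, strain or sex, and whether same-numbered arrays of both chips share an embryo is not stated. The null embryos lacked p63 in the whole body, and the RNA is from whole skin, so epidermis, dermis and the layers beneath were measured together. Values are MAS5 signals, linear intensities already scaled per array, and the chips are on different scales (trimmed mean signal of 250.1 to 250.2 for the A chip, 500.1 for the B chip). A lower signal from such a mixture cannot tell fewer cells of a type from less RNA per cell.

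Interleukin-1 cytokines are alarm signals of barrier tissues. Il1a and Il1b, the classical agonists, bind the receptor Il1r1, which then recruits the shared co-receptor Il1rap and activates NF-kappaB through MyD88 and TRAF6. Il1rn occupies Il1r1 without activating it, and Il1r2 is a decoy receptor that binds ligand without signalling. Il18 uses its own receptor pair, while Il1f6 (interleukin-36 alpha) acts through Il1rl2, where Il1f5 (the interleukin-36 receptor antagonist) opposes it. Keratinocytes are a known store of Il1a, Il18 and interleukin-36 cytokines in skin.

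Most ligands and both antagonists were lower in null skin, and no receptor was measurably lower. Il1a, Il18, Il1rn and Il1f5 fell on the A chip, and Il1f6 read far lower on the B chip, where it was too low on average to be tested. Il1r1 and 1 of the 2 Il1r2 probe sets rose. Of the 7 member probe sets tested on the A chip 6 passed an adjusted p of 0.05 in limma (4 lower, 2 higher), on a chip where 44.3% of all 7453 tested probe sets passed, 22.2% lower and 22.1% higher. Passing was thus common on this chip, where 3299 probe sets were called, or 2127 with wild-type replicate 2 left out. The median log2 change of the 7 was -1.81, beside 0.02 over all tested probe sets. Il1a and Il1f5 had null means of 39.0 and 35.3, under the lowest mean signal tested on the chip (54.4). They were thus tested only through their higher wild-type signals, so the filter itself favoured falls in the lower count and this median. The groups did not overlap for 6 of the 7, against 73.9% of tested probe sets. Fitted with no filter on low signals, 5 of the 9 A-chip member probe sets passed, where 24.2% of all 12422 did. In that fit 4 were lower and 1 higher, and the median log2 change of the 9 was -0.04.

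**Figure D1:**
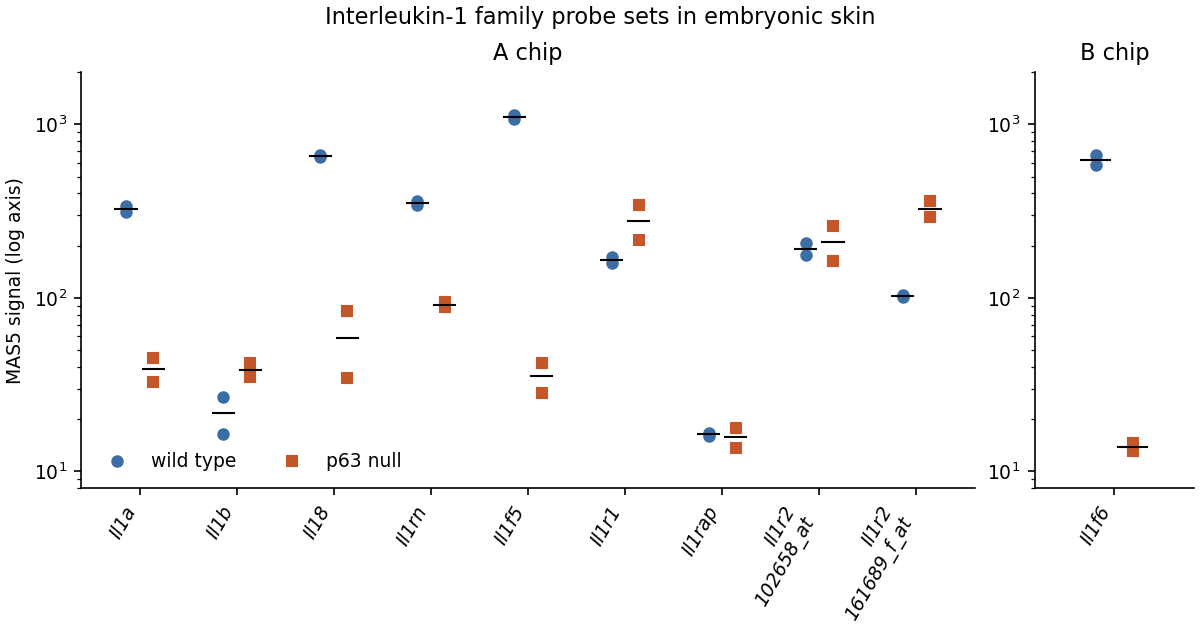
MAS5 signal (log axis) of each interleukin-1 family probe set in each array, with circles for the 2 wild-type and squares for the 2 p63 null arrays of a chip and a black bar at each mean. Wild-type signals of Il1a, Il18, Il1rn and Il1f5 lie above all null signals on the A chip, as do those of Il1f6 on the B chip, while Il1r1 and Il1r2 161689_f_at lie the other way.

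Among the agonists, Il1a had signals of 311.2 and 340.0 in wild-type skin and 32.9 and 45.0 in null skin. Both null values were far below the lower wild-type value. The mean signal fell from 325.6 ± 20.4 (SD, n = 2) to 39.0 ± 8.56, a log2 change of -2.72 (SE 0.19, limma adjusted p = 8.98e-06). Log2 changes are null minus wild type of the signal plus an offset, the 20th percentile of each chip (12.9 for A, 54.3 for B), which shrinks the change of low signals. In the null arrays Il1a stood between the 31.8th and 37.2th percentile of all signals of the array, against the 75.2th to 76.7th in wild type. The null signals are not shown to be above background, so no fold is given.

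Il18, which is kept in keratinocytes as an inactive precursor until caspase-1 cleaves it, read 664.9 and 645.1 in wild-type skin and 34.4 and 83.8 in null skin. The wild-type arrays were close together, and the null arrays differed from each other more, while both stayed far below wild type. Its null mean was 59.1 ± 34.9 (SD, n = 2), against 655 in wild type (log2 change -3.30, SE 0.28, limma adjusted p = 2.76e-05). The size depended on the null array used, -2.79 without null replicate 1 and -3.83 without null replicate 2, and the call held in both.

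Il1f6 read 582.9 and 669.8 in wild-type skin and 14.6 and 13.1 in null skin on the B chip. Its null signals lay between the 4.6th and 4.8th percentile of their arrays, so they are among the lowest values on the chip. With no detection calls these null signals are not shown to be above background, so no fold is given. Averaged over the 4 arrays its log2 value stayed below the 40th percentile required for testing, so it has no adjusted p of its own there. Fitted with no filter it had a log2 change of -3.32 (SE 0.26, limma adjusted p = 0.00114), in a fit that called 13.9% of 12411 probe sets. Of the tested probe sets of that chip, 67.7% had groups that did not overlap. That log2 change rests on the offset: it was -4.55 with an offset at the 5th percentile and -2.13 with one at the 40th.

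Il1b stood apart from these ligands. It read 26.9 and 16.4 in wild-type skin and 42.2 and 34.9 in null skin, low in all 4 arrays (24.8th to 35.8th percentile) and below the level for testing. The null arrays were the higher ones and the groups did not overlap, but with no filter the log2 change of 0.59 (SE 0.26) had a limma adjusted p of 0.167. No change in Il1b was detectable at these signals.

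Both antagonists fell, by different amounts. Il1f5 read 1069.4 and 1141.0 in wild-type skin and 28.4 and 42.2 in null skin, the widest gap of any member on the A chip. Its mean signal fell from 1105 ± 50.6 (SD, n = 2) to 35.3 ± 9.76 (log2 change -4.55, SE 0.18, limma adjusted p = 1.72e-07). Only 8 of the 7453 tested probe sets had a lower log2 change, as Il1f5 ranked 9 from the lowest. Its null signals lay at the 29.7th to 36.2th percentile and are not shown to be above background, so no fold is given, and the log2 change ran from -3.72 with the offset at the 40th percentile to -5.00 with a floor in place of the offset. Il1rn read 343.7 and 364.2 in wild-type skin and 88.7 and 94.2 in null skin. The 2 arrays of each genotype nearly coincided, and the null signals stayed near the middle of their arrays (48.8th to 51.1th percentile). Its mean fell 3.87-fold (log2 change -1.81, SE 0.16, limma adjusted p = 2.76e-05), ranking 142 from the lowest, where Il18 ranked 43 and Il1a 74.

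Ratios of the other members that fell to Il1rn were lower in null skin. The null minus wild-type difference in log2 ratio to Il1rn was -0.90 for Il1a, -1.49 for Il18 and -2.74 for Il1f5. Each is the gap between log2 changes given above, so its size rests on the offset. With the offset at the 40th percentile the log2 changes were -2.049 for Il1a and -1.497 for Il1rn. With it at the 5th percentile they were -2.996 and -1.923. The null signals of Il1a and Il1f5 are also not shown to be above background. Each ratio separated the genotypes completely, but with 2 arrays against 2 an exact permutation test (two-sided) cannot go below p = 0.333, and each of the 6 pairs tested had that p, before and after adjustment. The spread was widest for Il18, whose ratio to Il1rn had an SD of 0.68 between the null arrays. These are differences of ratios, since signals of different probe sets are not comparable as levels.

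**Figure D2:**
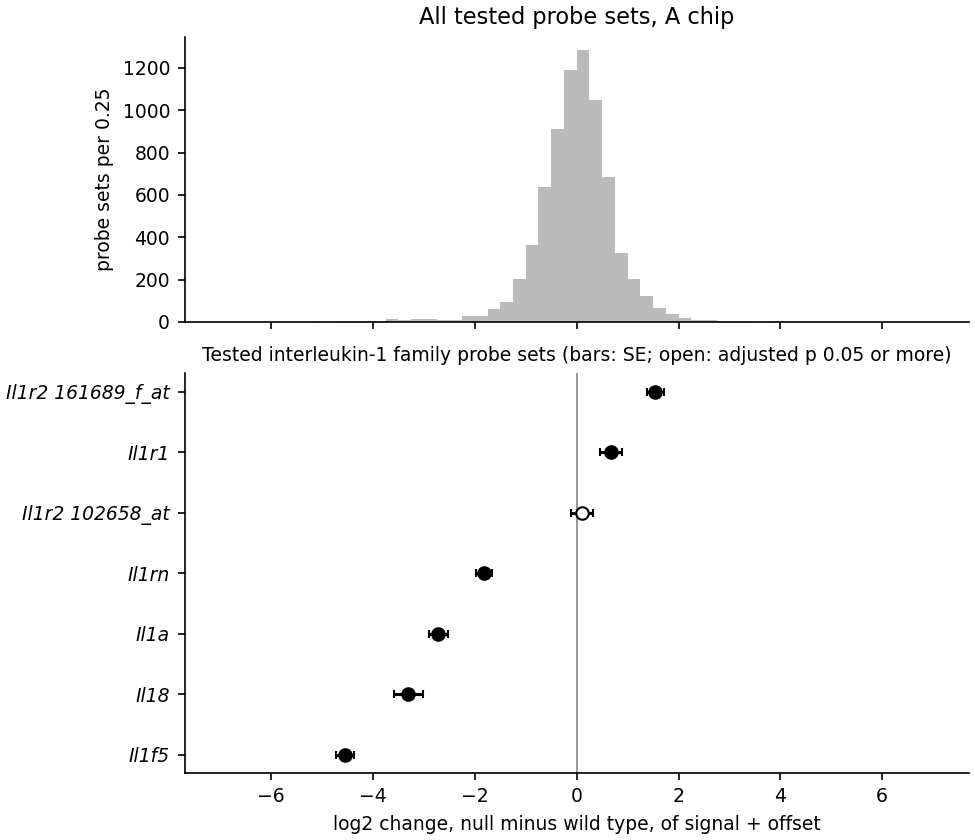
Upper panel, the number of tested A-chip probe sets per 0.25 of log2 change (null minus wild type, signal plus offset); lower panel, the 7 tested interleukin-1 family probe sets on the same axis with bars of 1 SE, filled where the limma adjusted p is under 0.05. Il1f5 at -4.55, Il18 at -3.30, Il1a at -2.72 and Il1rn at -1.81 lie in the left tail, and Il1r2 161689_f_at at 1.55 in the right.

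The start regions of Il1a, Il18, Il1rn and Il1f5, the tested members that fell, are printed beside that of Il1b. Il1a and Il1b are adjacent genes with unlike signals here, though Il1b was too low in wild type for a fall to be seen. RefSeq's promoter table (GRCm38.p6) was matched by gene identifier, that of Il1rl1 being found by its symbol. All members but Il1f6, 9 of the 10, had at least 1 window (14 windows in all). Each line gives the 250 bases before the first listed start, 5′ to 3′ on the gene's strand, with capitals marking TGANTCA, the AP-1 motif, or TATAAA, the TATA box, on either strand.
Il1a, chr2:129309973-129310222, minus strand: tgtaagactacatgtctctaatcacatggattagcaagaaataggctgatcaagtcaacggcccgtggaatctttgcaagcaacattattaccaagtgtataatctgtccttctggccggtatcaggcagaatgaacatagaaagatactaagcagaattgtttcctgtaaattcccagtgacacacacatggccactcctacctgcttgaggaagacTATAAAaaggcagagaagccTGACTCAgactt
Il1b, chr2:129371140-129371389, minus strand: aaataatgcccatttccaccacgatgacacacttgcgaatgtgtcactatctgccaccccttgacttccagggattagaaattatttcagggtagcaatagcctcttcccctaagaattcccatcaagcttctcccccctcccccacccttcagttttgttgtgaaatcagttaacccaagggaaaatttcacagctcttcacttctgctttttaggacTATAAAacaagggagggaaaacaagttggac
Il1rn, chr2:24336610-24336859, plus strand: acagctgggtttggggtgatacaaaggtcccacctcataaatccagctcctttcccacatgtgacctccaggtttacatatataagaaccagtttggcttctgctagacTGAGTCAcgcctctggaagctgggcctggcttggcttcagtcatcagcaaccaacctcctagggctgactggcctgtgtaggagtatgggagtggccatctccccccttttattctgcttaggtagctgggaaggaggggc
Il18, chr9:50554450-50554699, plus strand: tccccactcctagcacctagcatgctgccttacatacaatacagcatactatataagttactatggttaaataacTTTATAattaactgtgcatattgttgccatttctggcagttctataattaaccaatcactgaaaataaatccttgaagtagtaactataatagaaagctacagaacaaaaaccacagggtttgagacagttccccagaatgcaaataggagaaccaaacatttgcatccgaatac
Il1f5, chr2:24276704-24276953, plus strand: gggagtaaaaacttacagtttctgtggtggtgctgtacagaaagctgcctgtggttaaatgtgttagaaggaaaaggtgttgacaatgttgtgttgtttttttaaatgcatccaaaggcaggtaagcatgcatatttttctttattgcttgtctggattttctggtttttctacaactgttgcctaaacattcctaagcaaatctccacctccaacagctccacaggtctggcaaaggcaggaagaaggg

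Il1a and Il1b each hold a TATAAA in the same place, from base -32 and from base -31 before the start. Il1a also holds a TGANTCA from base -12 to -6, which Il1b lacks, and Il1rn holds one from base -141 to -135 at the first of its 3 listed starts. Il18 holds no TGANTCA and has its TATAAA on the opposite strand, from base -175 to -170. Neither motif occurs in the 2 windows of Il1f5. Of all 32851 windows of 250 bases in the table, 6.75% hold TGANTCA and 12.4% hold TATAAA on either strand. The p53-family decamer consensus, the unit of p63 binding, was searched too, and 7.13% of all windows hold it. Among the members it occurred only in the window of Il1rap, from base -235 to -226. A match is a run of letters in these windows and says nothing about binding.

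In RefSeq's gene order Il1f6, Il1f5, Il1f10 and Il1rn follow each other on chromosome 2, and the first, second and last of these are the members measured there, all with lower signals in null skin. Il1a and Il1b are neighbours elsewhere on chromosome 2, and of this pair Il1a fell. The receptor genes Il1r2, Il1r1, Il1rl2, Il1rl1, Il18r1 and Il18rap form a row on chromosome 1, where Il1r1 rose, no fall passed the threshold, and Il18r1 and Il18rap were too low to be tested. The array annotation names no genome build, so the order is RefSeq's alone.

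The signalling receptor Il1r1 read 158.7 and 172.6 in wild-type skin and 343.2 and 214.5 in null skin. Both null arrays were higher, 1 of them by little. Its mean rose 1.68-fold, from 165.7 ± 9.83 (SD, n = 2) to 278.9 ± 91.0 (log2 change 0.67, SE 0.21, limma adjusted p = 0.0287). Leaving out either wild-type array ended the call (adjusted p = 0.0724 without replicate 1, 0.0512 without replicate 2), as did leaving out null replicate 1 (0.162, log2 change 0.35) and using no filter (0.0790).

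For the decoy receptor Il1r2 the 2 probe sets disagreed. Probe set 161689_f_at read 101.6 and 104.5 in wild-type skin and 362.6 and 292.4 in null skin, a 3.18-fold higher mean (log2 change 1.55, SE 0.17, limma adjusted p = 0.000114). Its groups were far apart, and it stood at the 98.1th percentile of all tested log2 changes. Probe set 102658_at read 177.4 and 207.6 in wild-type skin and 163.5 and 259.2 in null skin, so its null arrays lay on both sides of wild type (log2 change 0.10, SE 0.21, limma adjusted p = 0.739). The suffix f marks a probe set with probes that can bind related sequences, so which of the 2 reads Il1r2 alone cannot be told from these values. The direction of 102658_at depended on single arrays, being -0.0093 when wild-type replicate 1 was left out and -0.22 when null replicate 2 was.

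The co-receptor Il1rap read 16.0 and 16.7 in wild-type skin and 17.7 and 13.7 in null skin, at the 19.7th to 23.5th percentile in the null arrays. The groups overlapped and the probe set was below the level for testing, so a change in the chain that the signalling receptors share was not detectable at these signals.

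**Figure D3:**
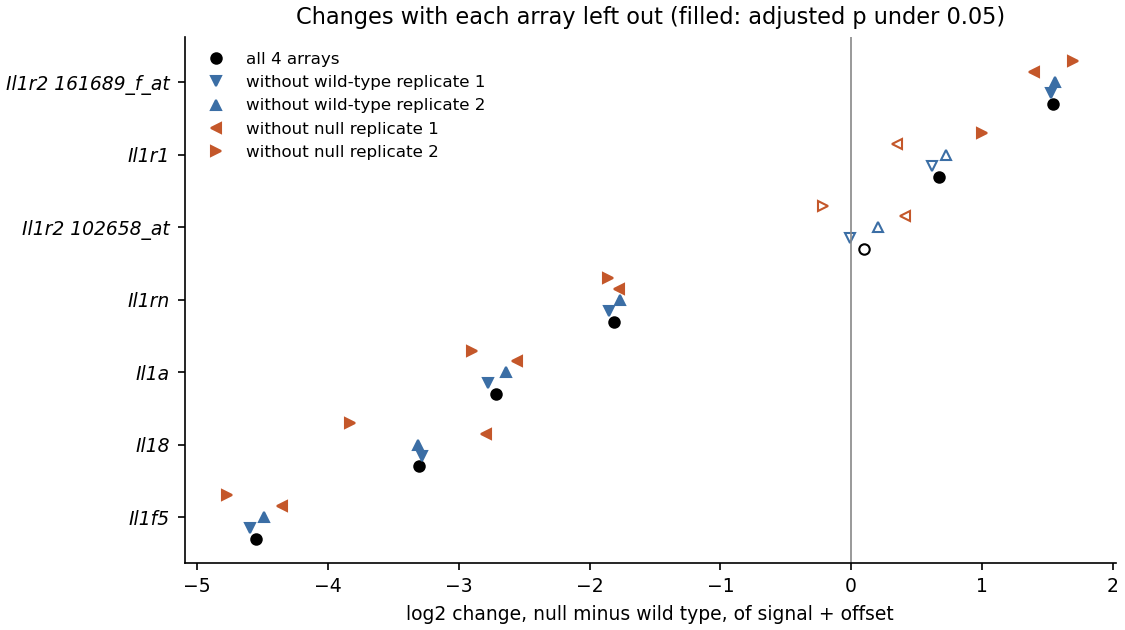
Log2 change (null minus wild type, signal plus offset) of the 7 tested A-chip probe sets with all 4 arrays and with each array left out, filled where the limma adjusted p is under 0.05. The 4 falls and the rise of Il1r2 161689_f_at keep their calls throughout, Il1r1 keeps its call only without null replicate 2, and Il1r2 102658_at crosses 0.

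Genes that complete the family were read from lists written from general knowledge. Of the 6 other ligand symbols only Il33 was on the chips. Il33, an alarm cytokine stored in nuclei of barrier and stromal cells, read 301.5 and 365.3 in wild-type skin and 1222.6 and 1218.2 in null skin on the B chip. Its mean rose 3.66-fold (log2 change 1.72, SE 0.16, limma adjusted p = 0.000368), opposite in direction to Il1a, Il18 and Il1f6. A further Il33 probe set, below the level for testing, read 112.2 and 120.5 in wild-type skin and 214.2 and 245.4 in null skin. With no filter its log2 change of 0.73 did not pass (limma adjusted p = 0.120). On the B chip 29.4% of the 7446 tested probe sets passed, 14.5% higher and 14.9% lower, 2189 in all, or 1175 and 1119 on omitting wild-type replicate 1 or 2.

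Of the other receptors and binding proteins, 3 were on the A chip, all below the level for testing, and 2 were tested on the B chip. Il1rl2, the receptor of Il1f6 and Il1f5, read 1425.0 and 1611.6 in wild-type skin and 1613.8 and 1673.6 in null skin. Its log2 change of 0.11 (SE 0.13) had a limma adjusted p of 0.545, so no change was detected in the receptor whose ligand and antagonist were so much lower. Sigirr, an inhibitory receptor of the family, read 620.9 and 541.2 in wild-type skin and 828.0 and 882.2 in null skin (log2 change 0.52, SE 0.15, limma adjusted p = 0.0405). That call was lost on leaving out either wild-type array (adjusted p = 0.104 without replicate 1, 0.248 without replicate 2) or null replicate 2 (0.0767), with no filter (0.0608) and with no variance trend (0.0578), and another Sigirr probe set had a log2 change of 0.19 (adjusted p = 0.616). Il18r1, the ligand-binding chain for Il18, read 2.7 and 23.5 in wild-type skin and 36.2 and 37.0 in null skin, and Il18bp, which neutralises Il18, read 10.7 and 28.4 against 35.7 and 20.6. All these signals are low, and Il18bp overlapped.

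Processing and release of interleukin-1 cytokines was covered by 20 genes. On the A chip 1 of 7 tested rose and 1 fell (median log2 change 0.29, beside 0.02 over all), no more than the 22.1% higher and 22.2% lower of all tested probe sets. On the B chip 3 of 4 rose and 1 fell (0.59, beside 0.04), where 14.5% of all were higher and 14.9% lower. Of the list's genes below the level for testing only Casp4, named with its value known, passed with no filter. It read 3.7 and 22.1 in wild-type skin and 87.4 and 79.7 in null skin (log2 change 2.00, limma adjusted p = 0.0139). Pycard, the adaptor ASC that links inflammasome sensors to caspase-1, read 4874.2 and 5390.5 in wild-type skin and 1383.2 and 1602.9 in null skin. This was a 3.44-fold lower mean with groups far apart (log2 change -1.75, SE 0.13, limma adjusted p = 0.000135). Casp1 itself, the protease that activates Il1b and Il18, read 97.2 and 103.0 in wild-type skin and 78.9 and 57.1 in null skin on the A chip (log2 change -0.49, limma adjusted p = 0.0908), and it was named with this value known. Its B-chip probe set, below the level for testing, read the other way, 115.3 and 87.3 against 153.5 and 141.7. Gsdmd, the pore through which mature Il1b and Il18 leave the cell, rose by 0.90 on the log2 scale (limma adjusted p = 0.0105, lost without wild-type replicate 1 at 0.0602), and its further probe set had a log2 change of 0.88 (adjusted p = 0.0315).

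Smaller changes in this list were less secure. P2rx7, an ATP-gated channel that triggers release, had a log2 change of 0.65 (limma adjusted p = 0.0375), lost without null replicate 1 (0.0617) or wild-type replicate 2 (0.243), with no filter (0.0688) and with no variance trend (0.0515). Its other probe sets had log2 changes of 0.29 (A chip, adjusted p = 0.301) and 0.21 (B chip, 0.465). Serpinb1a, an inhibitor of neutrophil proteases, had a log2 change of 0.54 (limma adjusted p = 0.0189), lost without wild-type replicate 1 (0.0688), wild-type replicate 2 (0.138) or the variance trend (0.0524). Capn2, a calpain subunit, had a log2 change of -0.52 (limma adjusted p = 0.0180), lost without wild-type replicate 2 (0.0997) or null replicate 2 (0.0707). Cma1, mast cell chymase, had a log2 change of 0.37 (limma adjusted p = 0.0450). That call was lost under 7 of 13 alternatives, among them the omission of wild-type replicate 1 (0.351) or 2 (0.275), while a further Cma1 probe set had a log2 change of 0.48 (adjusted p = 0.00780).

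Signalling genes below the receptor included rises and falls. On the A chip 5 of 18 tested rose and 4 fell (median log2 change -0.04), near the 22.1% higher and 22.2% lower of all tested probe sets and so no result about the list. On the B chip 2 of 8 rose and 0 fell (0.19), where 14.5% of all were higher and 14.9% lower. Those that fell furthest were ubiquitin ligases of the pathway. Traf6 read 418.8 and 456.1 in wild-type skin and 133.9 and 138.3 in null skin (log2 change -1.59, SE 0.14, limma adjusted p = 3.68e-05), and a further Traf6 probe set had a log2 change of -1.04 (adjusted p = 0.00249). Peli1, a Pellino protein that modifies IRAK kinases, read 450.9 and 448.7 against 147.1 and 113.1 (-1.70, SE 0.16, limma adjusted p = 5.19e-05). Neither gene overlapped between genotypes. The smaller falls were those of Tollip, an inhibitor of IRAK1, and of Tab2, an adaptor of the kinase TAK1, Tab2 being named with its value known (log2 changes -0.51 and -0.34, limma adjusted p = 0.0276 and 0.0424). The Tollip call was lost without wild-type replicate 1 (0.0681), wild-type replicate 2 (0.163) or null replicate 2 (0.0524), and a further Tollip probe set had a log2 change of 0.23 (adjusted p = 0.488).

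The 5 that rose on the A chip were NF-kappaB subunits and proteins of the inhibitor family. Relb read 56.7 and 50.0 in wild-type skin and 104.8 and 135.6 in null skin, Nfkb2 85.2 and 72.7 against 152.9 and 144.7, and Nfkbiz 127.9 and 117.4 against 241.4 and 194.7. Null arrays were higher in each case, with log2 changes of 1.00, 0.82 and 0.76 (limma adjusted p = 0.00487, 0.00648 and 0.00681). Rela and Nfkbia, named with their values known, had log2 changes of 0.68 (adjusted p = 0.00238) and 0.39 (0.0279), and the other tested Nfkbia probe set one of 0.25 (0.166). On the B chip Irak3, the inhibitory IRAK, had a log2 change of 0.86 (limma adjusted p = 0.00992, lost without wild-type replicate 2 at 0.0677), and the kinase gene Mapk9 one of 0.59 (0.0148, lost without wild-type replicate 1 at 0.0856 and wild-type replicate 2 at 0.0823).

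Genes that interleukin-1 can induce rose in 9 of 13 tested cases on the A chip and fell in 0 (median log2 change 1.17, beside 0.02 over all), where 22.1% of all tested probe sets were higher. On the B chip 1 of 2 rose, where 14.5% of all were higher. Saa3 and Cxcl5 were known to rise in these arrays when the list was written, so the list is not independent evidence of its direction, and its genes respond to many other signals. Saa3, Cxcl5, Lcn2, Cxcl1 and Ccl7 had wild-type means of 12.35 to 47.0, under the lowest mean signal tested on the A chip (54.4). They were thus tested only through their higher null signals, so the filter itself favoured rises in this count and median. Saa3, an acute phase protein, read 33.1 and 25.3 in wild-type skin and 2263.8 and 2698.6 in null skin, Cxcl5, a neutrophil chemokine, 17.2 and 11.7 against 284.7 and 263.6, and Lcn2, an iron-scavenging lipocalin, 12.2 and 12.5 against 246.0 and 226.3. In each the null arrays stood far above wild type (log2 changes 5.89, 3.40 and 3.30, limma adjusted p of at most 4.23e-06). Ccl2, Ccl7, Cxcl1, Cebpd, Sod2 and Vcam1 also rose there, by log2 changes of 0.51 (Vcam1) to 2.34 (Ccl2). The Vcam1 call was lost with no filter (limma adjusted p = 0.0663), and its other tested probe sets had log2 changes of 0.35 and 0.16 (0.176 and 0.640). A further Lcn2 probe set had a smaller log2 change of 0.78 (adjusted p = 0.0141). Sod2, the mitochondrial superoxide dismutase, had a log2 change of 0.73 on the B chip (limma adjusted p = 0.0180), lost without wild-type replicate 1 (0.0953) or wild-type replicate 2 (0.0871), and one of 1.17 on the A chip (0.000125). The 12 A-chip genes below the level for testing had signals of at most 136.8. Fitted with no filter, Mmp9, Cxcl2, Ccl3, Mmp13, Mmp3 and Ptgs2 were higher in null skin (limma adjusted p = 0.00104 to 0.0455). Il6, Tnf, Ccl4, Csf2, Nos2 and Sele did not pass in that fit (0.179 to 0.459), which called 24.2% of 12422 probe sets. Of the 13 tested with the filter, the other 4, Csf3, Cebpb, Ptges and Icam1, did not pass (log2 changes 0.01 to 0.44).

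**Figure D4:**
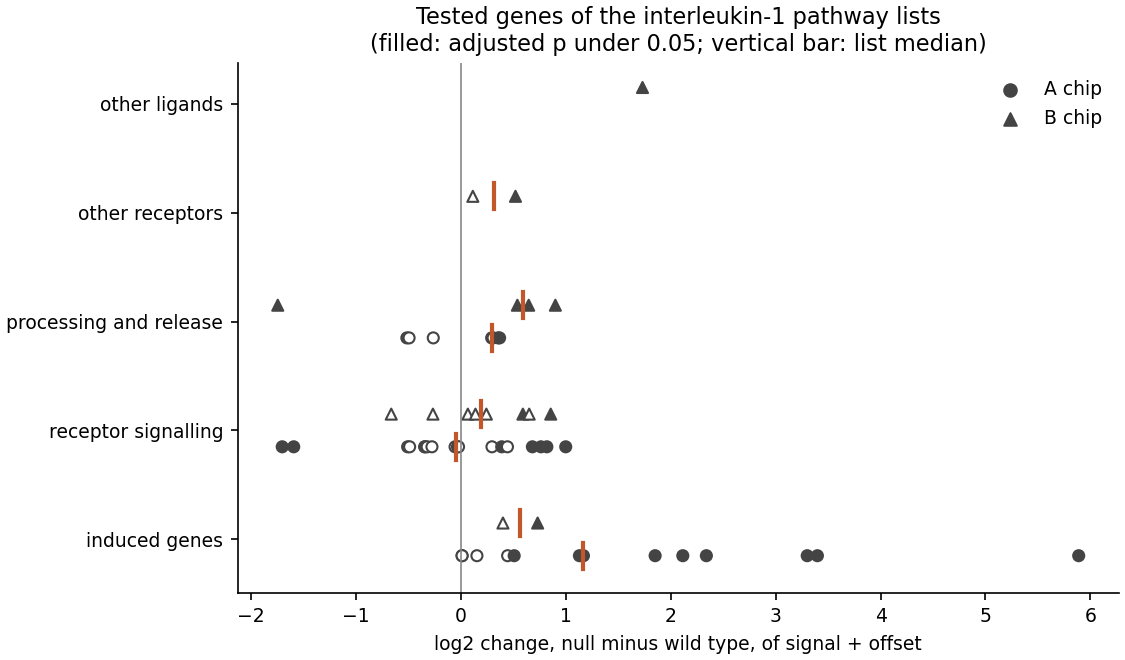
Log2 change (null minus wild type, signal plus offset) of each tested gene of the 5 pathway lists, read by its highest-mean probe set on each chip, with circles for the A chip and triangles for the B chip, filled where the limma adjusted p is under 0.05, and a vertical bar at the median of a list with more than 1 gene. The induced genes reach 5.89 (Saa3), and the lowest values are those of Pycard (-1.75), Peli1 (-1.70) and Traf6 (-1.59).

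Markers of other cells moved with these results. All 9 tested keratinocyte markers on the A chip fell (median log2 change -4.19), where 22.2% of all tested probe sets were lower. Of these, Ivl and Dsc1 had null means of 16.1 and 20.9, under the lowest mean signal tested there (54.4). They were tested only through their wild-type signals, so the filter favoured falls in this count and median. The summed signal of the 12 on the chip was 36143 to 37437 in wild type and 3765 to 4232 in the null. Krt5, Krt14 and Krt15 read at most 15.9 on that chip, also in wild type, so they do not mark keratinocytes there. Krt15 on the B chip fell with the other 2 keratinocyte markers tested there. The 9 markers ranged from -1.71 (Krt10) to -5.42 (Lor), with Col17a1 the next after Krt10 at -2.96. Il18 (-3.30) and Il1f5 (-4.55) lay between Col17a1 and Lor. Il1a (-2.72) and Il1rn (-1.81) lay between Krt10 and Col17a1, so they fell less than every marker tested on the A chip but Krt10. The markers tested on the B chip had log2 changes of -2.40 (Dsg1a), -3.71 (Krt15) and -4.08 (Dsc1). The part of the keratinocyte markers' fall in the lower signals of Il1a, Il18, Il1rn, Il1f5 and Il1f6 was not tested.

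Macrophage markers rose in 10 of 11 cases and fell in 0 (median log2 change 1.26), with a summed signal of 3613 to 3860 in wild type and 9831 to 10557 in the null. Neutrophil markers rose in 3 of 5 tested cases, 2 of them S100a8 and S100a9, which stressed keratinocytes also make, while 6 of 11 were below the level for testing at signals of at most 113.7. Of these 6, Mmp8 read 9.9 and 5.4 in wild type against 103.7 and 113.7, Ltf 7.7 and 6.7 against 85.9 and 71.0, and Ngp 13.8 and 11.7 against 101.9 and 91.3, each with a limma adjusted p of at most 0.00230 when no filter was used. Ly6g, Mpo and Cxcr2 read at most 33.3 in every array and did not pass in that fit. The summed signal of all 11 neutrophil markers was 777 to 827 in wild type and 3870 to 3918 in the null. Within the null sum S100a8 read 1867.2 and 1836.2 and S100a9 1048.5 and 1057.5. Mast cell markers rose in 5 of 8 cases and fell in 0 (summed signal 15236 to 16183 in wild type and 23130 to 28789 in the null). Endothelial markers rose in 6 of 8 cases on the A chip, fibroblast markers in 3 of 8, and lymphocyte and dendritic cell markers in 0 of 4 each, on a chip where 22.1% of all tested probe sets were higher. No list had a gene at 0 in all arrays. The part of these cells in the higher Il1r1, Il1r2 161689_f_at, Il33 and induced genes was not tested.

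Arrays of a genotype resembled each other more than arrays of different genotypes, with correlations across tested probe sets of 0.950 to 0.984 within and 0.769 to 0.865 between. Trp63, which encodes p63, read 379.3 and 347.1 in wild-type skin and 61.9 and 46.6 in null skin (log2 change -2.49, SE 0.18, limma adjusted p = 1.13e-05). The ratio of 3′ to 5′ beta-actin signal, a sign of RNA integrity, was 1.63 and 1.69 for wild-type skin on the A chip and 1.27 for each null array (on the B chip wild type was again higher, at 1.5 and 1.98 against 1.36 and 1.33), so it was lower in the null. For Gapdh it was 1.47 and 2.46 in wild type against 1.25 and 1.45 on the A chip, and 1.55 and 2.66 against 1.26 and 1.51 on the B chip, with wild-type replicate 2 apart from the rest on both. This ratio thus moved with genotype beside every result above, and its part in them was not tested.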

How the data were processed

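Per the labels' protocols, biotin-labelled targets were made from TriZol-extracted whole-skin RNA after an RNeasy clean-up. The deposited values are intensities per probe set, made by the authors with MAS5 per the submitters' processing notes. No MAS5 version or detection call was at hand, so low signals are described by level alone. Genotypes were taken from the sample titles, and 2 arrays per genotype and chip limit the precision. Each chip (7453 and 7446 of 12488 and 12477 probe sets tested) was rescaled to 1 trimmed mean (0.02 off each end), the 20th percentile was added as an offset, and log2 values were taken. Probe sets with a mean log2 value over the 40th percentile were fitted with limma 3.58.1 in R 4.3.3 (eBayes with an intensity trend, two-sided), with Benjamini-Hochberg adjustment over the chip and a threshold of 0.05. The fit was tested on simulated data. The 66 control probe sets per chip were left out. A gene of a list was read by its highest-mean tested probe set. Named are all members and, per pathway list, the 3 largest rises and 3 largest falls past the threshold without overlap, with Il1rl2, Il18r1, Il18bp, Sigirr and Trp63. Of 10833 and 10581 probe sets with 1 symbol, 10817 and 10550 matched RefSeq by gene identifier. The members and lists were chosen with earlier results of these data known. Alternatives were other offsets, a floor, other filters and scalings, no variance trend, the replicate number as a block, and leaving out each array.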

Additional observations from a re-analysis of the deposited data

How the results depend on the processing

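The falls of Il1a, Il18, Il1rn and Il1f5 and the rise of Il1r2 161689_f_at kept direction and call under every alternative that tested them. Over the members, the pathway genes named and Trp63, 364 values stayed on their side of the threshold (or, untested, within 1 SD), 34 lost the call, 6 values of Il1b and Il1f6 moved by more than 1 SD and 2 turned sign. Those 2 were Il1r2 102658_at, at -0.0093 without wild-type replicate 1, -0.22 without null replicate 2 and 0.41 without null replicate 1. Member calls on the A chip ranged from 5 to 6 with an array left out. On the B chip, where Il1f6 was not tested, the count of 0 became 1 with the offset at the 40th percentile (1), the floor (1) or no filter (1), and was 1 without either null array, which let it be tested. With an array left out, called probe sets numbered 2127 to 3376 (A chip) and 1119 to 2598 (B chip). The fewest were without wild-type replicate 2, and 1175 were called on the B chip without wild-type replicate 1. Same-numbered arrays did not deviate together (correlation of deviations 0.039 for A, -0.046 for B). With the replicate number as a block 3368 and 2411 probe sets were called and 6 members, and the Cma1 call was lost (adjusted p = 0.0975). Low signals limit Il1b, Il1rap and the null values of Il1f6.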

Other observations

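Other interleukin and interleukin receptor genes, collected by symbol after the members' values were seen, moved mostly upwards where they were tested on the A chip. Of the 32 on that chip 11 were tested, and 7 were higher and 0 lower in null skin (median log2 change 0.60, where 22.1% of tested probe sets were higher). Of 3 tested on the B chip 0 passed in limma at an adjusted p of 0.05. All of the 7 but Il9 encode receptor chains. Il6ra and Il9 had wild-type means of 42.9 and 49.6, under the lowest mean signal tested on the A chip (54.4). They were thus tested only through their higher null signals, so the filter favoured rises in the A-chip count and median. With no filter the calls of Il9 (limma adjusted p = 0.102) and Il6ra (0.0935) were lost. Of the genes untested on the A chip, Il13ra2 was lower (0.0375) and Il17a higher (0.0266) in that fit, both at low signals. Of those untested on the B chip only Il17b passed with no filter (log2 change 1.74, limma adjusted p = 0.0107). It read 46.8 and 47.5 in wild-type skin and 302.8 and 265.3 in null skin. Il15ra, the receptor chain that presents interleukin-15, read 206.9 and 133.3 in wild-type skin and 560.5 and 513.8 in null skin (log2 change 1.62, limma adjusted p = 0.000202). Il4ra, the receptor chain shared by interleukin-4 and interleukin-13, read 95.4 and 151.2 against 357.9 and 355.5 (1.47, adjusted p = 0.000436). Il10rb, a chain of the interleukin-10 receptor, read 469.4 and 470.0 against 907.4 and 786.0 (0.83, adjusted p = 0.000732). Macrophage markers rose on the same chip, and their part in these values was not tested. Il6st, the signal chain of the interleukin-6 family, had log2 changes of 0.22 and 0.60 in its probe sets and passed in neither (adjusted p = 0.254 and 0.120).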
